A study of Mus musculus with 36 samples.

Results

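The genes described here encode the constant regions of the gamma-delta T cell receptor: Trdc for the delta chain, and Tcrg-C1, Tcrg-C2 and Tcrg-C4 for the gamma chain. They were chosen by symbol, 4 of the 45706 genes in each deposited count table, and all 4 were found. A gamma-delta T cell carries a receptor of 1 gamma and 1 delta chain in place of the alpha and beta chains of CD4 helper T cells. The delta locus lies inside the alpha locus and is deleted when alpha segments are joined, whereas the gamma loci stay in the genome of alpha-beta T cells. Transcripts of these constant genes are therefore known as markers of gamma-delta T cells, although unrearranged or silenced gamma genes can give some RNA in other lymphocytes.

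RNA of mouse spleen CD4 T cells was sequenced in 36 libraries from strain C57BL/6J (WT) and strain C57BL/6J-Ets1-SE-KO (KO). Ets1 is a transcription factor of the ETS family with known roles in T cell development and Th1 function. The labels do not spell out SE or give coordinates of the deletion, and they give no age. Naive CD4+ T cells were taken by negative selection with beads, which keeps whatever the antibodies do not remove, and gave 2 WT and 2 KO libraries. Th1 cells (cultured on anti-CD3 with IL-12, IL-2 and anti-CD28) and Th2 cells (culture not given in the sources used here) gave 3 WT and 3 KO libraries each. A second Th1 experiment held untransduced WT and KO cells (2 libraries each), WT cells transduced with an empty vector retrovirus (EV, 4 libraries) and KO cells transduced with an Ets1 retrovirus (Ets1-RV, 4 libraries). Titles number libraries by B and T, letters whose meaning is not stated. All naive and first Th1 and Th2 libraries share B number 1, and no label ties them to separate mice or wells. The p-values below thus reflect only how much libraries of a group varied, and that variation may be technical. In the second experiment libraries of a group with the same B number were summed, which gave n = 2 in each group.

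The other 8 libraries of the second experiment were put in no group, because title and transduction label name different viruses. Total gene counts were 5069623 to 5852673 in naive libraries, 7311614 to 10256407 in the first cultures, and 1813288 to 6844944 in labelled libraries of the second experiment. Levels below are raw CPM, a gene's count scaled to 1000000 gene counts of its library, unless stated per length.

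Ets1 and Gm27162, a long noncoding RNA beside Ets1, served as the check of the genotype labels. Gm27162 had 0 counts in all 14 labelled KO libraries and 1.63 to 6.28 CPM in the 14 labelled WT libraries. Ets1 was at 1806.5 and 1813 CPM in naive WT and at 706 and 709 CPM in naive KO libraries. In the first Th1 cultures it was at 748 to 851 CPM in WT and 561 to 622 CPM in KO, and in Th2 cultures at 785 to 847 and 691 to 728 CPM. In the second experiment untransduced WT cells had 373 and 411 CPM and untransduced KO cells 214 and 239 CPM, while WT EV libraries had 314 to 391 CPM and KO Ets1-RV libraries 384 to 469 CPM.

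Of the 8 unassigned libraries, the 4 titled KO EV-RV had Gm27162 at 2.65, 2.97, 4.90 and 3.80 CPM, and the 4 titled WT Ets1-RV had none. These values go against the strain label of all 8 libraries. Ets1 was at 565 to 632 CPM in the first 4 and at 189 to 269 CPM in the other 4. The 4 constant genes summed to 13.8, 9.89, 12.4 and 8.76 CPM in the libraries titled KO EV-RV, and to between 1.25 and 2.80 CPM in those titled WT Ets1-RV. In labelled libraries of the experiment that sum was 8.49 to 16.8 CPM in WT and 0.358 to 1.47 CPM in KO, so libraries with Gm27162 had the higher sum of constant genes in all 20 libraries. Because of the labels, a comparison of empty virus with Ets1 virus within a genotype was not made.

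**Figure D1:**
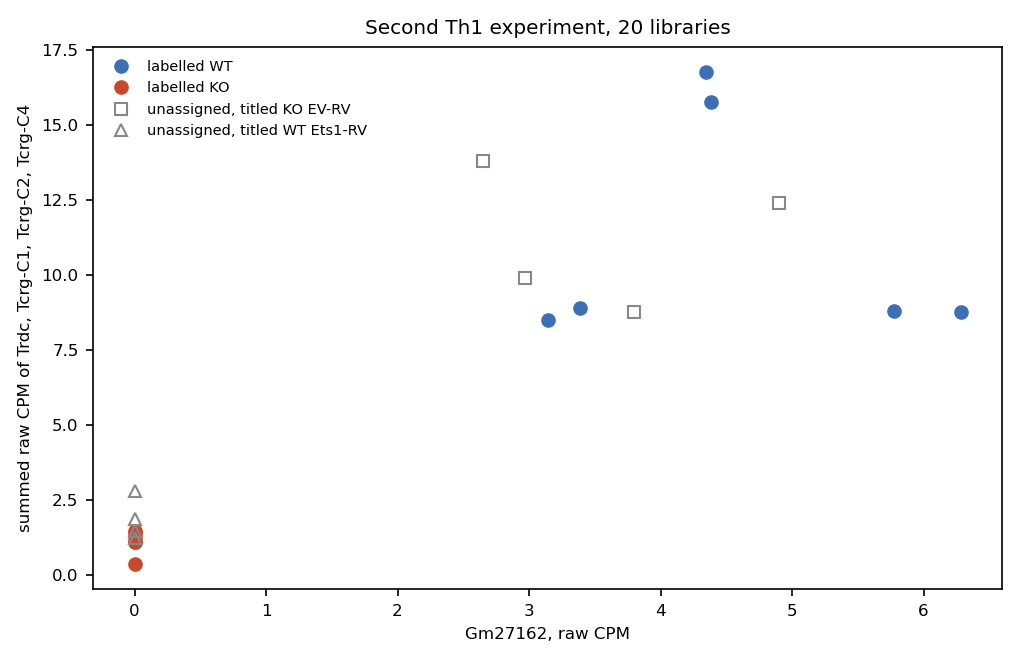
Summed raw CPM of Trdc, Tcrg-C1, Tcrg-C2 and Tcrg-C4 (vertical axis) against raw CPM of Gm27162 (horizontal axis), 1 point per library of the second Th1 experiment. Labelled WT libraries (blue) lie at 8.49 CPM or above and labelled KO libraries (red) at 1.47 CPM or below on the vertical axis; open squares are the unassigned libraries titled KO EV-RV and open triangles those titled WT Ets1-RV.

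On GRCm38, Trdc spans chr14:54142851-54148868 on the plus strand, with 4 exons, upstream of the alpha constant gene Trac (chr14:54220521-54224206). The gamma genes lie on chromosome 13: Tcrg-C1 at chr13:19214103-19217024 (plus strand), Tcrg-C2 at chr13:19304649-19307551 (minus strand) and Tcrg-C4 at chr13:19344558-19352756 (plus strand). The first 120 bases of exon 1, from GENCODE M21 transcripts, show how alike the gamma genes are, which decides how well reads can be told apart. Capitals mark bases that differ from Tcrg-C1, and Trdc has no capitals because it was not aligned to the gamma genes.
Tcrg-C1: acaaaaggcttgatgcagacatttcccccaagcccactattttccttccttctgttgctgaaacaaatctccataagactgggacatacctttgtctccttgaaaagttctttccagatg
Tcrg-C2: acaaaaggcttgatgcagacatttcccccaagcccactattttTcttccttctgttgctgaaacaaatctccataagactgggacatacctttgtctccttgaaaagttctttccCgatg
Tcrg-C4: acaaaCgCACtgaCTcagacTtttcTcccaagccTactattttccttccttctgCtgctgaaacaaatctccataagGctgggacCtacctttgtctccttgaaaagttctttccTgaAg
Trdc: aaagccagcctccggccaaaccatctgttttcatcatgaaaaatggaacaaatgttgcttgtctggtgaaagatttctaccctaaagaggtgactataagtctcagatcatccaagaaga

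Tcrg-C2 differs from Tcrg-C1 at 2 of these 120 bases and Tcrg-C4 at 14. Over all 330 bases of exon 1, Tcrg-C1 and Tcrg-C2 are 97.3% identical, and Tcrg-C4 is 82.1% identical to Tcrg-C1. Of 38-base windows of the transcript, 55.9% for Tcrg-C1, 62.8% for Tcrg-C2, 100% for Tcrg-C4 and 92.4% for Trdc occur in the transcripts of no other gene. At 61 bases, the other read length named in the labels' protocols, the shares were 74.3%, 82.6%, 100% and 94.3%. Levels of Tcrg-C1 and Tcrg-C2 are thus uncertain, because reads that fit several places were not counted.

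In the first Th1 cultures all 4 constant genes fell in KO cells, by between 1.81 and 2.25 on the log2 scale. Trdc was at 9.04, 7.91 and 15.8 CPM in WT libraries and at 4.02, 1.58 and 2.33 CPM in KO libraries. Every KO library lay below every WT library, though the third WT library stood well above the other two. Trdc fell by 2.07 on the log2 scale (SE 0.355, edgeR adjusted p = 0.00475), and pooled counts of 315 in WT and 72 in KO give a ratio of 4.30 (95% Poisson interval 3.32 to 5.64). Intervals cover counting error only. In bulk RNA, fewer gamma-delta T cells and less RNA per cell cannot be told apart.

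The gamma genes fell as well in Th1 cells. Tcrg-C1 was at 4.09, 1.83 and 2.92 CPM in WT and at 0.592, 0.948 and 0.304 CPM in KO libraries. Tcrg-C2, the gamma constant gene in reverse orientation, was at 6.78, 5.39 and 7.02 CPM in WT and at 3.31, 1.05 and 1.22 CPM in KO. Tcrg-C4 was at 4.09, 4.01 and 6.73 CPM in WT and at 1.66, 0.527 and 1.93 CPM in KO. In none of the 3 genes did WT and KO libraries overlap. Of all genes tested, 8.74% had every KO library below every WT library. The first KO library was the highest of its group for Trdc and Tcrg-C2 but not for the other 2 genes.

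Tcrg-C1 fell by 2.25 (SE 0.448, edgeR adjusted p = 0.00493), Tcrg-C2 by 1.81 (SE 0.371, adjusted p = 0.00826) and Tcrg-C4 by 1.86 (SE 0.399, adjusted p = 0.0110). Of all 12616 genes tested in this comparison, 1.46% were called lower, against 4 of the 4 constant genes. The median log2 fold change was -1.97 over the 4 genes and 0.00295 over all genes tested. Leaving out 1 library ended some of these calls: without WT replicate 1 the adjusted p was 0.0549 for Tcrg-C1 and 0.0506 for Tcrg-C2, and without KO replicate 2 it was 0.0549 for Tcrg-C4.

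**Figure D2:**
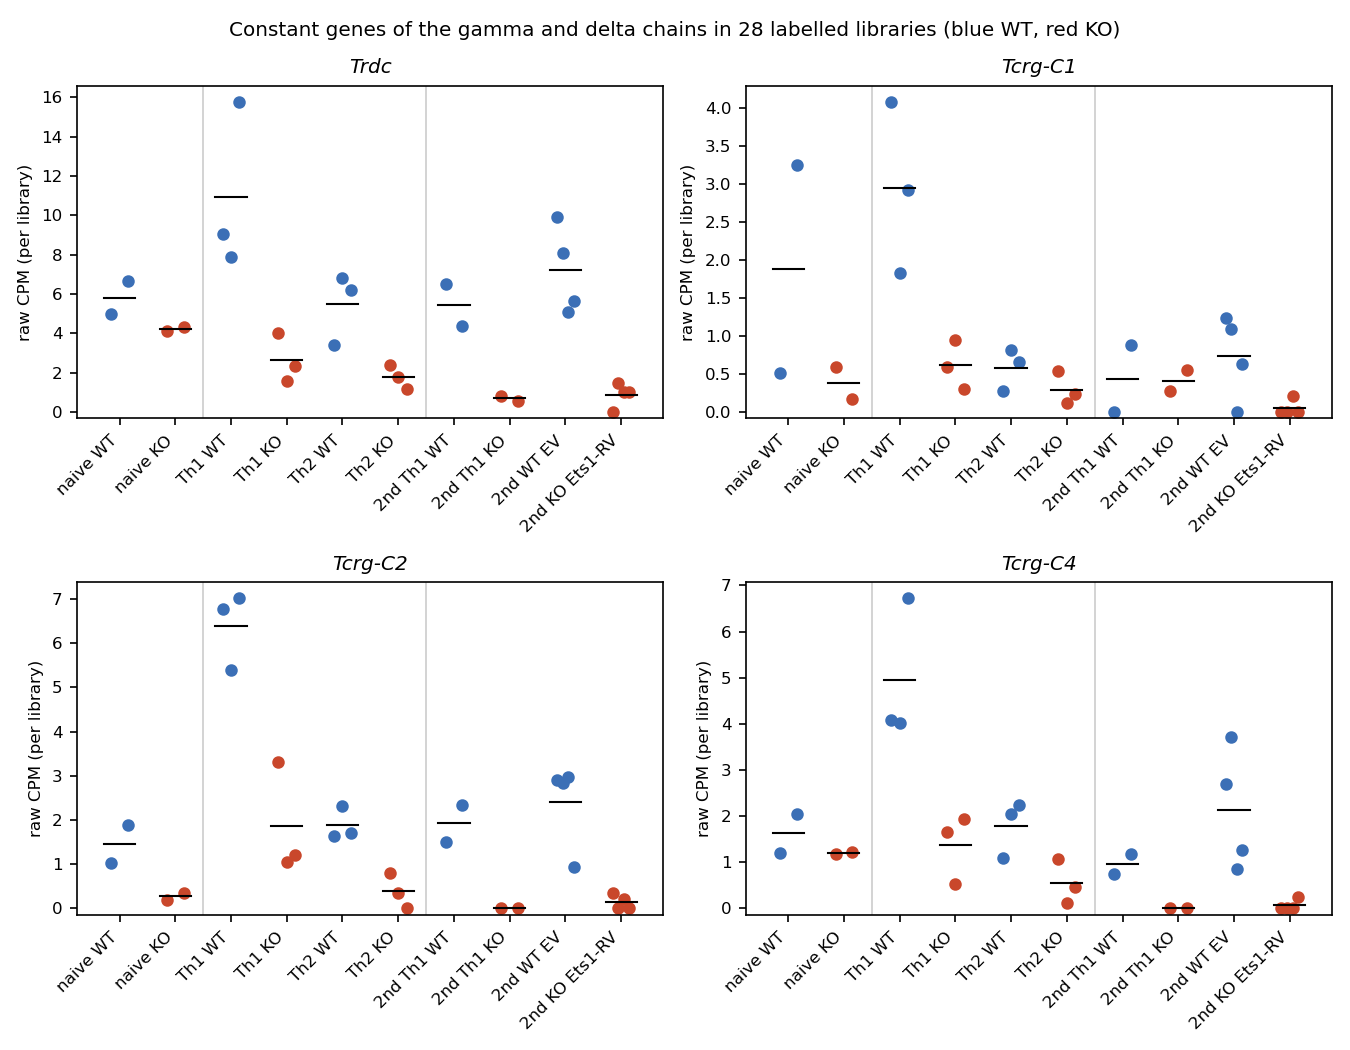
Raw CPM per library (vertical axis) of the 4 constant genes in the 28 labelled libraries, by group (horizontal axis); blue points are WT and red points KO, the bar is the mean over libraries, and grey lines part the naive cells, the first cultures and the second experiment (2nd). Trdc lies at 7.91 to 15.8 CPM in the first WT Th1 libraries and at 1.58 to 4.02 CPM in the KO Th1 libraries.

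In Th2 cells the same genes lay lower in KO cells, but none passed the test. Trdc was at 3.40, 6.84 and 6.19 CPM in WT and at 2.40, 1.79 and 1.15 CPM in KO libraries, with no overlap. Tcrg-C2 was at 1.63, 2.33 and 1.71 CPM in WT and at 0.799, 0.359 and 0 CPM in KO, also with no overlap. Tcrg-C4 was at 1.09, 2.05 and 2.24 CPM in WT and at 1.07, 0.120 and 0.460 CPM in KO, where the lowest WT and highest KO library nearly met. Tcrg-C1 was at 0.272 to 0.821 CPM in WT and 0.120 to 0.533 CPM in KO, on 13 and 7 counts, and its groups overlapped.

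The fitted Th2 differences were -1.67 for Trdc (SE 0.432, edgeR adjusted p = 0.155), -2.35 for Tcrg-C2 (adjusted p = 0.149), -1.77 for Tcrg-C4 (adjusted p = 0.281) and -1.03 for Tcrg-C1 (adjusted p = 0.762). Of the 12616 genes tested, 0.254% were called lower, and 4.98% had every KO library below every WT library. At an unadjusted p below 0.05, 3 of the 4 constant genes were lower, against 5.06% of all genes tested, and DESeq2 called 2 of them, Trdc (adjusted p = 0.00743) and Tcrg-C2 (adjusted p = 0.0286). The difference between the Th1 and the Th2 effect of KO was not called for any of the 4 genes in edgeR, with 0 at an unadjusted p below 0.05. DESeq2 gave an adjusted p for 1 of them and did not call it. For Trdc it was -0.40 (SE 0.587, edgeR adjusted p = 0.886), and its interval of 1.96 SE ran from -1.55 to 0.75.

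WT Th1 cells had more of each constant gene than WT Th2 cells. From the values above, Tcrg-C1 was 2.24 higher on the log2 scale (SE 0.478, edgeR adjusted p = 0.000889), Tcrg-C2 1.69 (adjusted p = 0.00214), Tcrg-C4 1.39 (adjusted p = 0.0111) and Trdc 0.93 (adjusted p = 0.0447). WT Th1 and Th2 libraries did not overlap for any of the 4 genes, and 25.2% of all genes tested had every Th1 library above every Th2 library. The share of all genes called higher in WT Th1 cells was 13.9%, so both were common in this comparison. Without Th1 WT replicate 3 the adjusted p was 0.176 for Trdc and 0.0606 for Tcrg-C4; without Th2 WT replicate 1 it was 0.150 and 0.0664; without Th1 WT replicate 1 or Th2 WT replicate 3 it was 0.0515 or 0.0804 for Trdc.

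Among KO cells, 1 of the 4 genes was called higher in Th1 than in Th2 cells, where 8.01% of all genes were. This was Tcrg-C2 (log2 fold change 2.23, SE 0.614, edgeR adjusted p = 0.0150). The call was lost without Th1 KO replicate 1 (edgeR adjusted p = 0.0882), Th2 KO replicate 2 (0.0694) or Th2 KO replicate 3 (0.0713). Trdc differed by 0.53 (SE 0.473, edgeR adjusted p = 0.509).

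In naive cells only Trdc of the 4 constant genes had enough counts to be tested. Trdc was at 4.96 and 6.66 CPM in WT and at 4.14 and 4.33 CPM in KO libraries. The groups did not overlap, as in 25.4% of all genes tested, but the difference of -0.46 (SE 0.360, edgeR adjusted p = 0.431) was not called, with an interval of 1.96 SE from -1.17 to 0.24. Of 11246 genes tested, 8.98% were called lower in naive KO cells. Tcrg-C1 was at 0.513 and 3.25 CPM in WT and 0.592 and 0.173 CPM in KO, Tcrg-C2 at 1.03 and 1.88 against 0.197 and 0.346 CPM, and Tcrg-C4 at 1.20 and 2.05 against 1.18 and 1.21 CPM. The second WT library was the higher for each of the 4 genes.

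Genotype and sex cannot be told apart in the naive libraries: Xist was at 465.9 and 498 CPM in WT and at 0 in KO, and Uty at 0 in WT and 44.97 and 50.2 CPM in KO. Handling stress genes were called higher in naive KO cells in 8 of 8 cases, where 8.79% of all genes tested were. Erythroid genes were called lower in 3 of 3, where 8.98% of all genes were, and DESeq2 called 1 of the 3. The part of stress and erythroid genes in the Trdc values was not tested. The KO effect on Trdc was 1.61 smaller in naive than in Th1 cells on the log2 scale (SE 0.565, edgeR adjusted p = 0.141), which was not called. Without the filter on low counts the difference was 1.63 (edgeR adjusted p = 0.00816). Without Th1 KO replicate 1 the difference was 2.02 (edgeR adjusted p = 0.0391).

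In the second experiment, Trdc fell in untransduced KO Th1 cells, where 2 of the gamma genes had no count. Trdc was at 6.53 and 4.38 CPM in WT and at 0.817 and 0.551 CPM in KO samples, from 56 counts against 4. Its log2 fold change was -2.80 (SE 0.597, edgeR adjusted p = 0.0162), and 1.00% of 11072 genes tested were called lower. The ratio of pooled CPM was 7.09, with a Poisson interval of 2.62 to 26.9. The call was lost when WT sample 1 (adjusted p = 0.0638), KO sample 1 (0.195) or KO sample 2 (0.101) was left out, and with DESeq2 (0.0889). Leaving out a sample leaves 1 in that group, which the test then assumes to vary like the other groups here and in the comparison with viruses.

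Tcrg-C2 was at 1.51 and 2.34 CPM in untransduced WT and had 0 counts in both KO samples, whose summed depth allows up to 0.547 CPM at 3 counts. Pooled WT CPM of Tcrg-C2 was 3.72 times that level, and the lower Poisson limit of the WT to KO ratio was 2.78. The test of Tcrg-C2 gave an edgeR adjusted p of 0.0695. Tcrg-C4 was at 0.754 and 1.17 CPM in WT and 0 in KO. Its pooled WT CPM was 1.86 times the KO level at 3 counts, with a lower Poisson limit of the ratio of 1.27. Tcrg-C1 was at 0 and 0.877 CPM in WT and at 0.272 and 0.551 CPM in KO, on 6 and 2 counts, so that no difference was detectable at this depth. Tcrg-C1 and Tcrg-C4 had too few counts to be tested. The KO effect in this experiment and in the first Th1 cultures was compared for the 4 genes, with 0 called in edgeR and 0 at an unadjusted p below 0.05. For Trdc the difference was -0.74 (SE 0.941, edgeR adjusted p = 0.850).

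With the viruses, the deficit was still present: KO cells with Ets1-RV had less Trdc and Tcrg-C2 than WT cells with EV. Trdc was at 9.94, 8.10, 5.08 and 5.66 CPM in the WT EV libraries and at 0, 1.47, 1.01 and 1.02 CPM in the KO Ets1-RV libraries. In the first 2 WT libraries, of B number 1, it was higher than in the other 2, of B number 2. Trdc fell by 2.94 on the log2 scale (SE 0.404, edgeR adjusted p = 0.000663), with 115 counts against 14, a pooled ratio of 8.27 and a Poisson interval of 4.73 to 15.6. Of 11072 genes tested, 0.262% were called lower.

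Tcrg-C2 was at 2.90, 2.85, 2.97 and 0.943 CPM with EV and at 0.358, 0, 0.203 and 0 CPM with Ets1-RV in KO cells. It fell by 3.94 (SE 0.824, edgeR adjusted p = 0.0274), a call that was lost without WT EV sample 1 (0.336), KO Ets1-RV sample 1 (0.0945) or KO Ets1-RV sample 2 (0.326), and with DESeq2 (0.188). Tcrg-C4 was at 2.69, 3.72, 0.847 and 1.26 CPM against 0, 0, 0 and 0.256 CPM, on 36 counts against 1, a ratio of 36.2 with an interval of 6.10 to 1471. Tcrg-C1 was at 1.24, 1.10, 0 and 0.629 CPM against 0, 0, 0.203 and 0 CPM, on 13 counts against 1. The count filter kept these last 2 genes out of the main test. Without the filter, Tcrg-C4 had a log2 fold change of -4.65 (edgeR adjusted p = 0.00154) and Tcrg-C1 of -3.23 (edgeR adjusted p = 0.455). Genotype and virus differ together in this comparison.

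Within KO cells, Ets1 was 0.85 higher on the log2 scale with Ets1-RV than in untransduced cells (SE 0.134, edgeR adjusted p = 0.00449). Of all genes tested, 0.397% were called in either direction. Trdc differed by 0.30 (SE 0.772, edgeR adjusted p = 0.938), and its interval of 1.96 SE, from -1.22 to 1.81, leaves room for a change in either direction. Tcrg-C2 went from 0 counts to 2 counts. In edgeR 0 of the 2 genes tested were called and 0 had an unadjusted p below 0.05, and DESeq2 gave no adjusted p for them. This contrast includes transduction itself as well as Ets1.

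Between WT EV and untransduced WT cells Trdc differed by 0.44 (SE 0.325, edgeR adjusted p = 1.00) and Tcrg-C2 by 0.21 (SE 0.540). The share of genes called in this comparison was 0%, with 251 genes at an unadjusted p below 0.05, none of them a constant gene. The deficit with viruses minus the deficit without was -0.14 for Trdc (SE 0.912, edgeR adjusted p = 1.00), with an interval of 1.96 SE from -1.93 to 1.65. For Ets1 the same difference was 1.02 (SE 0.187, edgeR adjusted p = 0.0809). Over all genes, 0.00903% were called, which was Spp1, the gene of osteopontin (log2 difference 1.40, edgeR adjusted p = 0.00929), named after its value was seen.

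**Figure D3:**
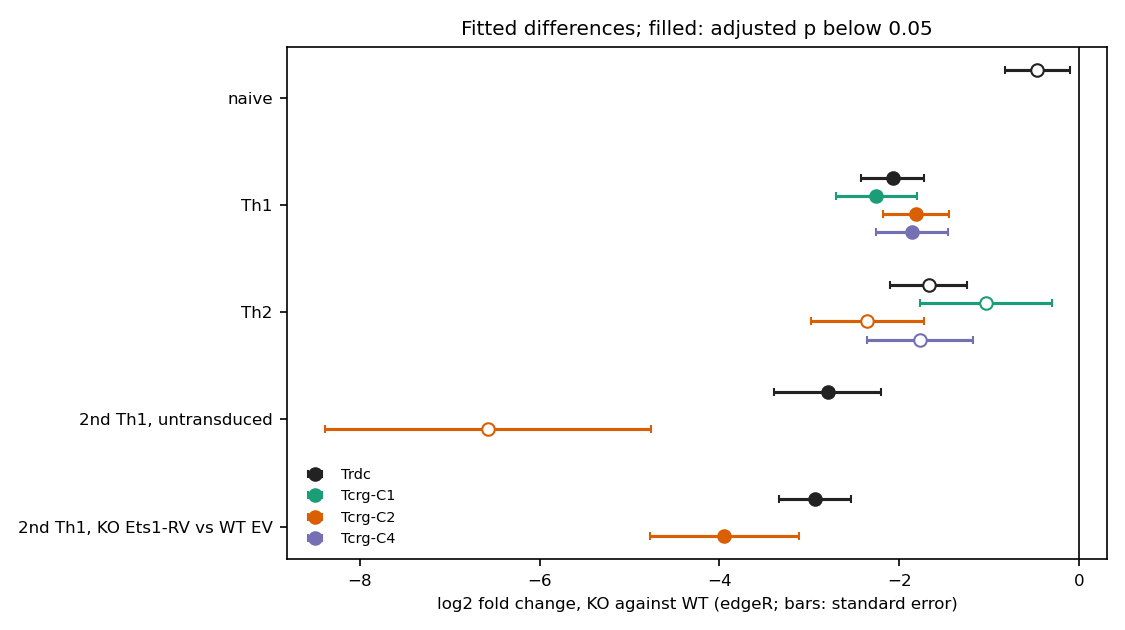
Fitted log2 fold change of KO against WT (horizontal axis, bars show the standard error) for each constant gene that could be tested, by comparison (vertical axis); filled points have an edgeR adjusted p below 0.05. All fitted values lie below 0, from -0.46 for Trdc in naive cells to -6.58 for Tcrg-C2 in untransduced cells, where the KO group had no count and the fitted value is no bound.

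Over all groups, the level of Trdc was highest in the first WT Th1 cultures, at 10.9 ± 4.27 CPM (SD, n = 3), and lowest in untransduced KO Th1 cells, at 0.684 ± 0.188 (SD, n = 2). Between these came WT EV (7.23 ± 2.57, n = 2), naive WT (5.81 ± 1.20, n = 2), Th2 WT (5.48 ± 1.83, n = 3) and untransduced WT cells (5.46 ± 1.52, n = 2). The KO groups followed, with naive KO at 4.24 ± 0.132 (n = 2), Th1 KO at 2.65 ± 1.25 (n = 3), Th2 KO at 1.78 ± 0.624 (n = 3) and KO Ets1-RV at 0.912 ± 0.150 (n = 2). Each of the 5 WT groups had a higher mean than each of the 5 KO groups. Neighbours in this order differed by less than the sum of their SDs, apart from naive KO against Th1 KO at a gap of 1.59 and Th2 KO against KO Ets1-RV at a gap of 0.868. Levels from separate experiments were not normalised together.

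Per length, Tcrg-C2 and Tcrg-C4 exceeded the delta gene in each of the 3 first WT Th1 libraries. The mean level in CPM per kilobase of exon was 6.996 for Tcrg-C2 and 5.02 for Tcrg-C4, against 2.82 for Trdc. Tcrg-C1, at 4.42, 1.98 and 3.17 per kilobase, was above Trdc, at 2.34, 2.05 and 4.09, in 1 of the 3 libraries. In naive WT cells the mean was 1.59 for Tcrg-C2, 1.65 for Tcrg-C4 and 1.504 for Trdc, while Tcrg-C1 was at 0.556 per kilobase in the first library and 3.51 in the second, the lowest and the highest of the 4 genes.

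Variable segments give a second view of the same loci. A gamma variable segment and a delta-only variable segment can be used in a gamma or delta chain, whereas segments named Trav-dv serve alpha and delta chains alike. The annotation holds 36 gamma and delta segments, of which 32 are not among the constant genes above and 15 of those had at least 10 counts over all libraries. In first Th1 cells the summed gamma variable segments were at 6.13, 5.04 and 7.12 CPM in WT and at 2.60, 1.47 and 0.811 CPM in KO libraries. Delta-only variable segments summed to 2.90, 2.52 and 2.63 CPM in WT and to 0.828, 0.843 and 0.811 CPM in KO. Both sums separated the genotypes without overlap, and the delta-only sum varied little within each genotype. In Th2 cells both sums overlapped, with gamma variable segments at 0.679 to 2.74 CPM in WT and 0.230 to 0.799 CPM in KO, and delta-only segments at 0.951 to 1.504 and 0.575 to 1.44 CPM. In naive cells the gamma sum overlapped as well, and delta-only segments were at 3.42 CPM in both WT libraries and at 3.55 and 3.64 CPM in KO.

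Segments shared by alpha and delta chains overlapped between genotypes when summed, at 8.61, 7.11 and 8.48 CPM in WT and 6.27, 8.43 and 7.30 CPM in KO Th1 libraries. They did not overlap in naive cells, at 25.7 and 21.5 CPM in WT and 21.1 and 18.5 CPM in KO, or in untransduced cells, at 11.6 and 7.60 CPM in WT and 5.99 and 6.62 CPM in KO. With the viruses the direction was opposite: KO Ets1-RV libraries, at 7.16 to 9.74 CPM, all lay above WT EV libraries, at 5.18 to 6.78 CPM. In naive cells 25.4% of all genes tested had every KO library below every WT library. That share was not computed for the second experiment. Of the segments with at least 10 counts, 3 of 3 gamma and 3 of 3 delta-only variable segments had every KO library below every WT library in Th1 cells, against 3 of 8 shared segments. Of all genes tested in Th1 cells 8.74% separated in that way. That share is over genes that passed the count filter, as did 2 of all 10 shared segments and 2 of the 22 other segments. The shared segment with most counts in the first Th1 libraries, Trav6-7-dv9, had 59 counts in WT and 74 in KO. These counts are descriptions, with few counts behind most segments.

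Trgv2, a gamma variable segment, was called lower: it was at 3.66, 3.09 and 5.36 CPM in WT and at 1.77, 1.26 and 0.406 CPM in KO Th1 cells (log2 fold change -1.85, SE 0.412, edgeR adjusted p = 0.0126). Tcrg-V4 had 31 counts in WT and 8 in KO, Tcrg-V1 19 and 5, Trdv1 49 and 17, and Trdv5 21 and 4. Trdv5 overlaps the end of Trdc on the opposite strand, so counting by strand matters there: Trdc had 958 counts over all libraries by strand and 699 without strand. Tcrg-C3, the other gamma constant gene of the annotation, had 6 counts in WT and 1 in KO Th1 cells.

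**Figure D4:**
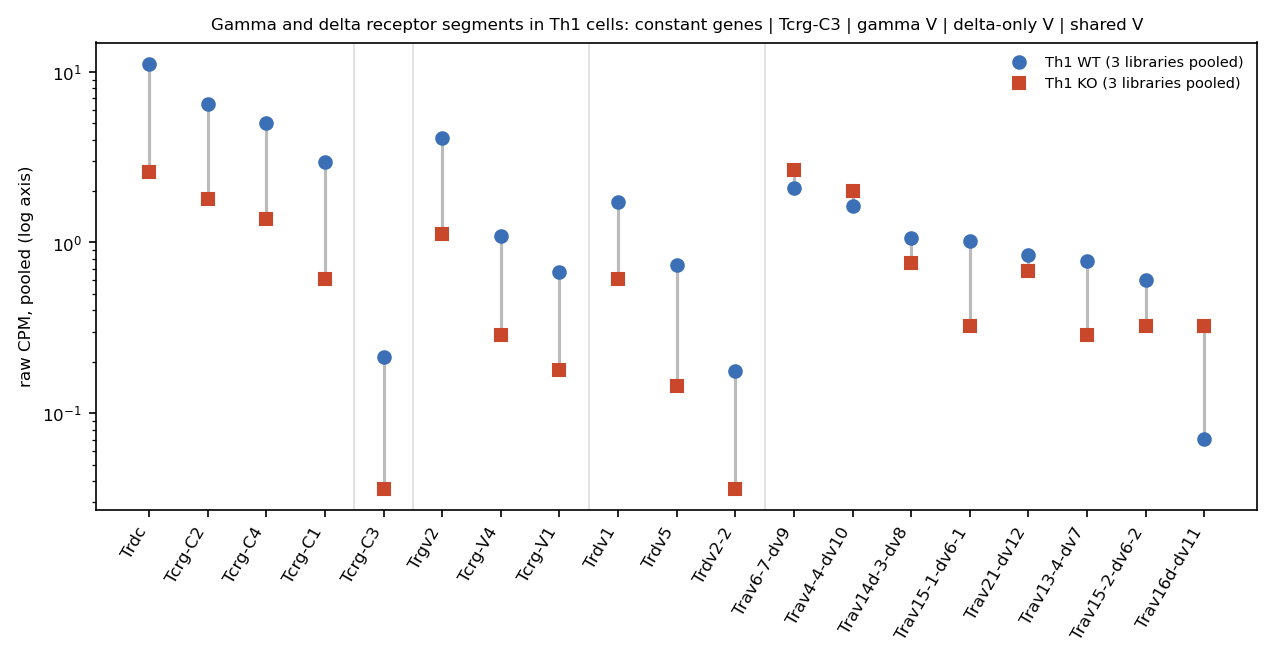
Pooled raw CPM on a log axis (vertical axis) of the constant genes and of the gamma and delta segments with at least 10 counts over all libraries (horizontal axis) in first Th1 cells; blue circles pool 3 WT and red squares 3 KO libraries, and a grey line joins each pair. The blue circle lies above the red square for every constant gene, gamma segment and delta-only segment, and below it for 3 of the 8 shared segments on the right.

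With the viruses, gamma variable segments summed to 3.73, 2.63, 2.12 and 2.83 CPM in WT EV libraries and to 1.07, 0, 0.406 and 0 CPM in KO Ets1-RV libraries. Delta-only segments overlapped there, at 2.48, 2.85, 0 and 0.943 CPM against 1.07, 0, 0.406 and 0.768 CPM. The WT libraries of B number 2 were the low ones. In untransduced cells gamma variable segments were at 0.502 and 0.877 CPM in WT and at 0.272 and 0 CPM in KO, on 8 counts and 1.

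The alpha-beta receptor genes were not called lower in KO helper cells. Of its constant genes and the CD3 chains, 0 of 7 were called lower and 1 of 7 higher in KO Th1 cells: Cd247, the zeta signalling chain, by 0.24 (edgeR adjusted p = 0.0483). There 1.46% of all genes tested were called lower. The share called higher is not given here, so the 1 call higher is a description only. Trbc1 and Trbc2, the beta constant genes, differed by 0.02 and -0.01 in Th1 cells. The summed list was at 1043 to 1087 CPM in WT and 1034 to 1179 CPM in KO Th1 libraries. Set against Trac, the alpha constant gene, the 4 gamma-delta constant genes had 145 to 204 counts per 1000 Trac counts in WT Th1 and 24.4 to 66.4 in KO Th1 libraries. With the viruses the same ratio was 71.1 to 122 in WT EV and 2.48 to 11.02 in KO Ets1-RV libraries.

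In naive KO cells 6 of the 7 alpha-beta and CD3 genes were called higher, where 8.79% of all genes tested were, Cd247 by 0.73 (edgeR adjusted p = 2.01e-34). In Th2 cells, untransduced Th1 cells and KO Ets1-RV against WT EV cells, edgeR called 0 of the 7 in either direction, with 3, 1 and 1 at an unadjusted p below 0.05, and DESeq2 called 0.

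Among 23 genes known to regulate the gamma and delta loci or the choice between the lineages, Ets1 itself was the 1 gene that edgeR called in KO Th1 cells, by -0.45 (edgeR adjusted p = 0.000218). Of the 20 tested there, 6 had an unadjusted p below 0.05 and DESeq2 called 2. Among all genes tested in Th1 cells 1.46% were called lower. In naive KO cells 3 of the 21 tested were called lower and 6 higher, where 8.98% and 8.79% of all genes tested were. Ets1 fell by 1.37, Notch1, a receptor that drives T lineage commitment, by 0.97 and Runx3, a Runt factor of innate and CD8 lymphocytes, by 0.44. Sox4, a transcription factor of gamma-delta T cell development, rose by 0.84, Myb by 0.44 and Lef1 by 0.38. Id3, Tox and Cbfb, named after their values were seen, rose by 0.97, 0.42 and 0.32. In Th1 cells the values were -0.18 for Notch1, -0.08 for Runx3, 0.24 for Sox4 and -0.09 for Myb, and none of these passed the test. In Th2 cells edgeR called 0 of 20, with 3 at an unadjusted p below 0.05 and 1 in DESeq2. In untransduced cells Ets1 was the 1 gene called, at a log2 fold change of -0.75 (adjusted p = 0.00425 in edgeR), where 1.00% of all genes tested were called lower. In KO Ets1-RV against WT EV cells it was Egr2, a factor induced by receptor signalling, which rose by 0.77 (edgeR adjusted p = 0.0447) and was named after its value was seen.

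Other genes known from gamma-delta T cells were not called with the receptor genes. Of 11 such genes, among them Sox13, a factor of gamma-delta precursors, Blk, a Src-family kinase, and Il17a and Il23r of the type 17 program, only some had enough counts to be tested in edgeR: 2 in naive, 7 in Th1, 7 in Th2 and 4 in untransduced cells, and 4 in KO Ets1-RV against WT EV cells. Of those tested, edgeR and DESeq2 called 0 in each of the 5 genotype comparisons. At an unadjusted p below 0.05 edgeR had 1 in naive, 0 in Th1, 1 in Th2 and 0 in untransduced cells. It had 2 in KO Ets1-RV against WT EV cells, where 2 of the 4 tested had a log2 fold change below 0. The sum of the 11 genes was at 15.2 to 36.8 CPM in WT and 25.1 to 31.7 CPM in KO Th1 libraries. It was at 30.1 to 39.9 CPM in WT EV and 31.3 to 59.8 CPM in KO Ets1-RV libraries. Most of it came from Il23r, with 437 counts in WT and 452 in KO Th1 cells, a gene that helper T cells also express. In the first Th1 cultures Sox13 was at 0.115 to 0.390 CPM in WT and 0.105 to 0.507 CPM in KO libraries. 5830411N06Rik, a scavenger receptor family gene, was at 0 in all 3 WT and in 2 of 3 KO libraries. In the second experiment Sox13 was lower in KO on summed counts, with 38 in WT EV against 12 in KO Ets1-RV libraries. Its libraries overlapped there, at 0.847 to 3.52 CPM in WT EV and 0.203 to 1.76 CPM in KO Ets1-RV. In untransduced cells it did not overlap, at 1.31 and 1.76 CPM in WT and 1.09 and 1.10 CPM in KO libraries, on 16 and 6 counts. In naive cells Sox13 was at 0.513 and 1.88 CPM in WT and at 0 in both KO libraries, and the sum of the 11 genes was at 10.1 and 10.9 CPM in WT and 6.93 and 9.47 CPM in KO.

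Genes of innate-like and cytotoxic lymphocytes moved with the constant genes in part. In KO Th1 cells 5 of 9 tested were called lower: Prf1, perforin, by 2.27 (edgeR adjusted p = 0.00636), Gzmc, a granzyme, by 2.15 (adjusted p = 0.0132), and the receptor genes Klrd1 by 2.19 (adjusted p = 0.000489), Klrc1 by 1.67 (adjusted p = 0.00701) and Klrk1 by 1.39 (adjusted p = 0.00516). Of all genes tested in Th1 cells 1.46% were called lower. In Th2 cells edgeR called 0 of 9 and DESeq2 called 1, with 4 at an unadjusted p below 0.05 in edgeR. Prf1 and Gzmc also fell in the untransduced comparison, by 1.34 (edgeR adjusted p = 0.00904) and 2.54 (adjusted p = 0.0487). They were the 2 of 9 tested that edgeR called there, where 1.00% of all genes were called lower. In KO Ets1-RV against WT EV cells Prf1 and Gzmc fell by 1.06 and 2.18 (edgeR adjusted p = 0.0137 for both). Again they were the 2 of 9 tested that edgeR called, where 0.262% of all genes were called lower. Only 5 of these 9 had a log2 fold change below 0, at a median of -0.07. The summed list overlapped there, at 1054 to 1601 CPM in WT EV and 914 to 2029 CPM in KO Ets1-RV libraries. It was at 2574 to 3144 CPM in first WT Th1 and 41.5 and 42.1 CPM in naive WT libraries. Which cells of the cultures held this RNA was not tested. Gzma went the other way in Th1 cells, at 0.80, and did not pass the test (edgeR adjusted p = 0.123). In naive KO cells, where Trdc was not called, 2 of 4 tested were called lower, Prf1 at -2.04 (edgeR adjusted p = 6.98e-12) and Gzma at -2.59 (edgeR adjusted p = 0.00830). Of all genes tested in naive cells 8.98% were called lower, and DESeq2 called 1 of the 4.

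Summed markers of other cell types that the preparation could hold were far below those of CD4 T cells. Not all were below the constant genes. In naive cells CD8 genes summed to 35.0 and 35.5 CPM in KO and 17.3 and 17.4 CPM in WT, and NK genes to 11.6 to 12.1 CPM. Myeloid genes summed to 11.6 and 14.4 CPM in naive KO and to 10.6 and 13.7 CPM in naive WT. Erythroid genes were at 5.20 and 7.69 CPM in naive KO and at 19.48 and 19.50 CPM in naive WT. The 4 constant genes summed there to 6.06 and 6.11 CPM in KO and 7.70 and 13.8 CPM in WT. In Th2 cells CD8 genes summed to 9.81 to 11.3 CPM in KO and 5.40 to 8.21 CPM in WT. The 4 NK cell genes summed to 2.04 to 2.73 CPM in WT and 0.710 to 1.62 CPM in KO Th1 libraries, and to 3.46 to 5.80 CPM in WT EV and 2.35 to 7.10 CPM in KO Ets1-RV libraries. CD8 genes summed to 4.68 to 6.88 CPM in WT and 6.95 to 9.82 CPM in KO Th1 libraries, and Cd8b1 was called higher in KO (0.75, edgeR adjusted p = 0.0380). B cell genes were at 0.861 to 3.71 CPM in WT and 3.31 to 4.95 CPM in KO Th1 libraries. Myeloid genes were at 0.843 CPM or below in all first Th1 libraries. CD4 T cell genes were at 1106 to 1259 CPM in WT and 1042 to 1173 CPM in KO. In the first Th1 cultures the NK sum was thus lower and the CD8 sum higher in KO, and their part in the result was not tested. With the viruses both sums overlapped between the groups, with CD8 genes at 3.46 to 5.93 CPM in WT EV and 4.47 to 5.63 CPM in KO Ets1-RV libraries.

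In the second experiment Xist was at 204 CPM or above in all labelled libraries of B number 2 and at 0.358 CPM or below in those of B number 1. Each of the 4 labelled groups held both, so this difference was balanced between the groups compared.

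Across the 24 samples, the genes whose log2 CPM was most like Trdc were Tcrg-C4 (Pearson r 0.91), Tcrg-C2 (0.87) and Gm27162 (0.84), among 12361 genes at a mean of at least 1 CPM. Tcrg-C2 was most like Tcrg-C4 (0.88), Trdc (0.87) and Crmp1 (0.85), and Tcrg-C4 most like Trdc, Tcrg-C2 and Crmp1 (0.81). Tcrg-C1 was less closely followed, with Tcrg-C4 (0.70), Trgv2 (0.70) and Trmt2a (0.67) nearest. These values describe samples that share genotype, experiment and depth, and carry no test.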

How the data were processed

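The files hold raw counts per gene for 36 mouse RNA libraries, made by the authors with STAR 2.5.0a on GRCm38 per the submitters' processing notes. The release of the gene annotation behind the counts is not stated. Symbols came from GENCODE M21, which matched 45143 identifiers and left 563 without one. The libraries were made with a stranded total RNA kit, and column 4, the strand with nearly all gene counts, was used. The 4 summary lines (unmapped, multimapping and unassigned reads) named no gene and stayed out of all totals; they held 63.6 to 76.0% of each library. The counts carry no molecular identifiers. No pair of same-group libraries was identical, and the lowest chi-square per degree of freedom between them was 1.26.

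Groups were taken from the sample labels, not from the names of the files. Libraries of the EV and Ets1-RV groups with the same B number were summed, which gave 24 samples from 28 labelled libraries. edgeR 4.0.16 in R 4.3.3 was used for the quasi-likelihood test, with TMM scaling, filterByExpr and Benjamini-Hochberg adjustment over all genes tested at 0.05, and the code was tested on simulated data. Naive cells, the first cultures and the second experiment were fitted separately, and jointly only for differences between effects. Standard errors are the log2 fold change divided by the root of the F statistic. Alternatives were DESeq2 1.42.0, other scalings, no filter, counts without strand, a replicate block, single libraries, and each replicate left out.

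The members and lists were chosen with earlier results of these data known. Genes named were the members, gamma and delta segments with at least 10 counts, and up to 6 genes of each list that passed 0.05 in a genotype comparison. For each member the 3 genes most like it were named.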

Additional observations from a re-analysis of the deposited data

Results flagged for a closer look

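In the second experiment 3 of the 8 sets of 4 libraries tested had 1 library apart from the other 3 by Dixon's criterion. Tcrg-C1 was at 0.203 CPM in 1 KO Ets1-RV library and at 0 in the others, and Tcrg-C4 at 0.256 CPM in 1 KO Ets1-RV library and at 0 in the others; each of these values is 1 count beside 3 zeros, where any single count stands apart, so the 1 in 20 sets that chance flags among continuous values does not apply. Tcrg-C2 was at 0.943 CPM, 3 counts, in 1 WT EV library and at 2.85 to 2.97 CPM in the other 3.

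The unassigned libraries titled KO EV-RV lay above all labelled KO libraries of that experiment, which did not pass 1.47 CPM for the 4 summed genes and had no Gm27162. The summed genes were at 13.8, 9.89, 12.4 and 8.76 CPM, and Gm27162 at 2.65, 2.97, 4.90 and 3.80 CPM.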

How the results depend on the processing

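In the 5 genotype comparisons all 159 values under alternatives, which refit the same counts, were below 0. They cover only constant genes that the main fit tested. Tcrg-C1 and Tcrg-C4 are thus absent for naive cells and the second experiment, and Tcrg-C2 for naive cells. Trdc kept its call in Th1 cells and in KO Ets1-RV against WT EV cells under every alternative run. With DESeq2, Th2 Trdc (-1.67) and Tcrg-C2 (-2.39) were called, while untransduced Trdc (-2.84) and Tcrg-C2 with viruses (-4.12) were not; calls over all genes were 865 in naive cells (1998 in edgeR), 78 in Th2 (51) and 123 in untransduced cells (205). With library totals, untransduced Trdc (-2.84) and Tcrg-C2 with viruses (-3.97) were not called, and calls were 53 and 17 (74 with TMM for the viruses). Without strand, untransduced Trdc was at -2.63 and not called. Without the filter, Th2 Trdc (-1.67), Tcrg-C2 (-2.35) and Tcrg-C4 (-1.76) and untransduced Tcrg-C2 (-6.57) were called, and calls were 777 in Th1 (424), 177 in Th2, 376 in untransduced cells and 198 with viruses. Tcrg-C4 with viruses (-4.65), which the filter had removed, and the naive minus Th1 difference of Trdc (1.63) were then called as well. With each library on its own, untransduced Tcrg-C2 (-6.00) was called, and calls were 314 untransduced and 472 with viruses. With only the 2 groups compared, Th2 Trdc (-1.67) was called. The causes were not tested.

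Leaving out each replicate in turn gave Tcrg-C1 from -2.71 to -1.92, Tcrg-C2 from -2.49 to -1.52 and Tcrg-C4 from -2.21 to -1.45 in Th1 cells, untransduced Trdc from -3.20 to -2.63 and Tcrg-C2 with viruses from -4.15 to -3.69. Calls ranged from 1100 to 1866 in naive, 166 to 467 in Th1, 16 to 53 in Th2 and 47 to 109 in untransduced cells, and from 25 to 92 with viruses. Where this left 1 sample in a group, it was assumed to vary like the other groups. Uncalled differences changed sign: the KO effect in Th1 minus Th2 for Tcrg-C4 (-0.57 to 0.75) and Tcrg-C2 (-0.14 to 1.55), WT EV against untransduced for Tcrg-C2 (-0.11 to 0.74), the deficit difference for Trdc (-0.34 to 0.26), and the KO effect in naive minus Th1 cells for Tcrg-C1 (-1.05 to 1.80) and Tcrg-C2 (-0.99 to 0.15). Without strand, Tcrg-C2 in KO Ets1-RV against untransduced KO cells (-0.46) and its deficit difference (-0.64) changed sign.

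In the naive and first cultures samples with the same T number did not deviate together in every pair (correlations of -0.072 to 0.103). T numbers were therefore not taken as pairing. In the second experiment samples with the same B number had correlations of 0.0487 untransduced and 0.0967 with viruses. With n = 2 per group the deviations mirror each other and any value above 0 is the best match, so this cannot show pairing. B number went with Xist there, yet the main fits held no block for it. The replicate block gave -2.05 for Trdc in Th1 cells and ended 1 call on the constant genes, Trdc in WT Th1 against Th2 cells (0.90, edgeR adjusted p = 0.0603). Low counts limited the second experiment, where KO groups had 0 to 14 counts per gene.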

Other observations

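In the 4 unassigned libraries titled KO EV-RV, Trdc was at 9.02, 5.61, 7.496 and 4.96 CPM, Tcrg-C2 at 1.59, 2.97, 1.73 and 2.63 CPM, and Tcrg-C4 at 1.59, 0.989, 2.59 and 0.876 CPM. In the 4 titled WT Ets1-RV, Trdc was at 1.25, 1.86, 1.30 and 2.80 CPM, Tcrg-C2 at 0, 0, 0.163 and 0 CPM, and Tcrg-C1 and Tcrg-C4 had no count. The 2 sets of titles did not overlap for Trdc, Tcrg-C2 or Tcrg-C4. Per 1000 Trac counts the 4 genes had at most 18.3 counts in the libraries titled WT Ets1-RV and at least 85.7 in those titled KO EV-RV.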
